A study of Mus musculus with 4 samples.

Results

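The glucocorticoid receptor gene, the mineralocorticoid receptor gene and 8 of their target genes were followed in the mouse hippocampus. The 10 genes, Nr3c1, Nr3c2, Fkbp5, Sgk1, Tsc22d3, Zbtb16, Pdk4, Mt1, Mt2 and Cdkn1a, were chosen by name out of 30921 gene symbols on the array, as a reading of stress hormone state. Male mice were killed at postnatal day 90, and RNA of their right hippocampus was hybridized to 4 Affymetrix Mouse Gene 2.0 ST arrays, with 1 mouse per array. The IPMK WT mice carried floxed Ipmk alleles without Cre (Ipmk f/f), and the IPMK cKO mice carried the same alleles with CaMKII-Cre (Ipmk f/f;CaMKII-Cre), with 2 mice of each and littermates as controls. CaMKII-Cre acts in excitatory neurons of the postnatal forebrain, so glia, interneurons and vessels of these mice keep the gene. The mice had undergone no behavioural task. No corticosterone level was measured on these arrays, and the time of day of dissection is not given in the sources used here.

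Corticosterone, the main glucocorticoid of mice, enters cells and binds both receptors, which then move to the nucleus and act on DNA. The hippocampus is known for holding both. The mineralocorticoid receptor (Nr3c2) binds the hormone with high affinity and is largely occupied at rest. The glucocorticoid receptor (Nr3c1) has lower affinity and fills at the daily peak and under stress. Ligand-bound receptor commonly raises transcription of genes with a glucocorticoid response element, among them Fkbp5, Sgk1, Tsc22d3 and the metallothionein genes. Most of these genes also answer to other signals.

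Each of the 10 genes had 1 probe set of 18 to 35 probes, and 0 of the 10 were marked as cross-hybridizing in the array annotation. Values are log2 values after robust multi-array averaging (RMA), which brings all arrays to a common distribution of probe signals. Array medians lay between 5.10 and 5.15, and 10 of the 10 genes had a mean log2 value of at least 6. Ipmk itself, the deleted gene, went against the labels, reading 7.68 and 7.71 under the IPMK WT label, then 8.44 and 8.78 under the IPMK cKO label. Its other probe set did the same, at 5.78 and 5.52, then 6.97 and 6.43. The probes were not placed against the deleted part here, and directions by genotype below are those of the labels. In whole tissue, fewer cells of a type and less RNA per cell cannot be told apart.

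Comparing the arrays labelled IPMK cKO with those labelled IPMK WT asks whether loss of Ipmk in excitatory neurons goes with another level of these genes. Over all 33793 probe sets, limma called 0% at an adjusted p under 0.05 and 2.86% had an unadjusted p under 0.05, 0.979% higher and 1.88% lower. In 27.2% the arrays of both labels did not overlap. Of the 10 genes, 0 had an adjusted p under 0.05, 1 had an unadjusted p under 0.05 and 3 showed no overlap. The share without overlap is close to that of all probe sets. The median log2 difference of the 10 genes was 0.02, against −0.00 over all probe sets. The LPE test named in the study's methods pools the error of probe sets of similar level. By a version of it rewritten here, 0 of the 10 passed as well.

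A further comparison set the arrays of replicate number 2 against those of replicate number 1, each pair holding 1 array of either label. The labels do not say what the numbers stand for. Here limma called 0% of probe sets at an adjusted p under 0.05, 12.1% had an unadjusted p under 0.05 (6.6% higher, 5.51% lower) and in 44.7% the pairs did not overlap. Of the 10 genes, 0 had an adjusted p under 0.05, 3 had an unadjusted p under 0.05 (Nr3c2 lower, Pdk4 and Mt2 higher in the replicate 2 arrays) and 7 showed no overlap. The median log2 difference of the 10 genes was 0.07, against −0.01 over all probe sets. Replicate 2 minus replicate 1 had the same sign under both genotype labels in 10 of the 10 genes, and in 58.9% of all probe sets. The 10 genes all averaged at least 6 on the log2 scale, above the array medians. The same-sign and no-overlap shares among probe sets of like level were not computed. Refitted on probe sets averaging at least 6, limma gave 3280 at an unadjusted p under 0.05 by replicate number, against 4091 over all. The array medians lie under 6, so the share at such a p is above 12.1% at the level of the 10 genes. This bears as well on the gene lists below, whose counts are set against all probe sets. IPMK cKO minus IPMK WT had the same sign at both replicate numbers in 6 of the 10 genes, and in 48.7% of all probe sets.

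**Figure D1:**
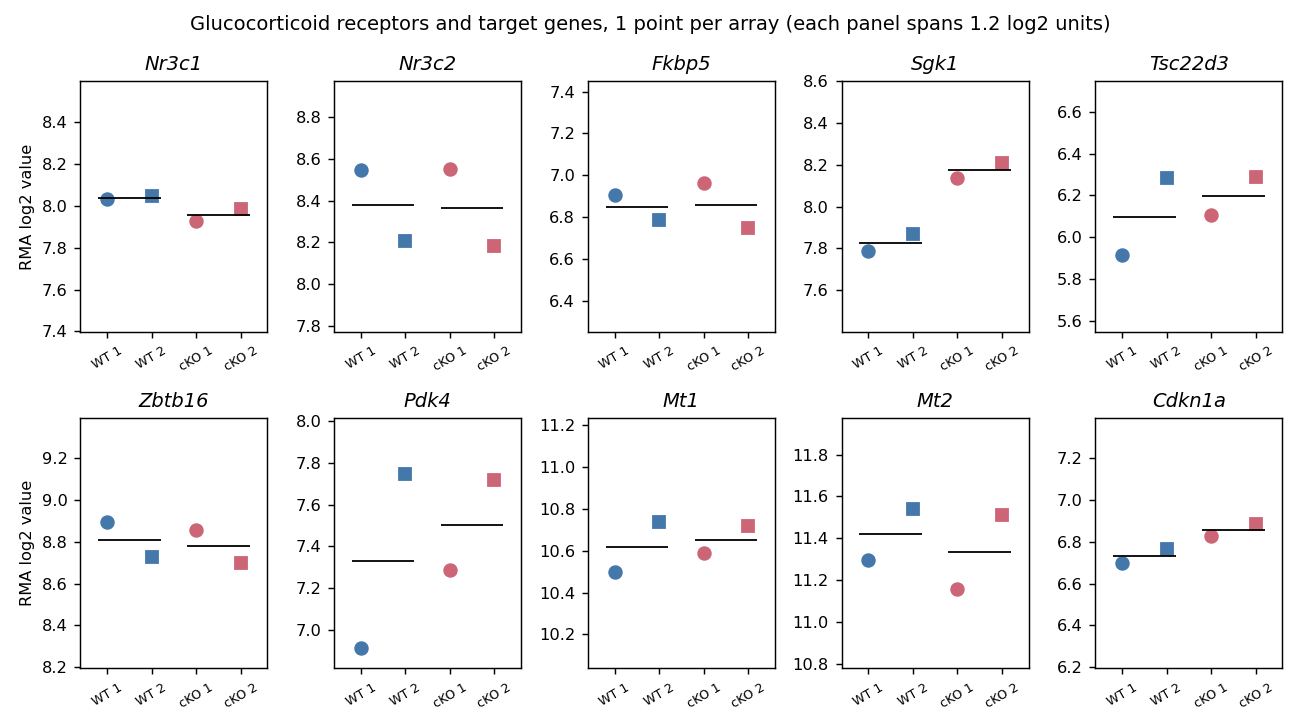
RMA log2 value of each of the 10 genes on each array, with 1 panel per gene. Blue marks the IPMK WT label and red the IPMK cKO label, circles are replicate 1 and squares replicate 2, and lines are means of 2 arrays. Sgk1 separates by genotype label, at 7.79 and 7.87 against 8.14 and 8.21. Pdk4, Mt2 and Nr3c2 separate by replicate number.

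The receptor genes differed from each other in their pattern over the arrays. Nr3c1, on the minus strand of chromosome 18, encodes the glucocorticoid receptor and had the narrowest spread of the 10 genes, 0.117 on the log2 scale. It read 8.03 and 8.05 under the IPMK WT label, then 7.93 and 7.98 under the IPMK cKO label. The arrays labelled IPMK cKO lay lower without overlap, by a gap of 0.0487. The log2 difference by genotype label was −0.08 (standard error (SE) 0.12, 95% confidence interval (CI) −0.37 to 0.21, adjusted p = 0.9999, limma). By replicate number the pairs overlapped, with a log2 difference of 0.03 (95% CI −0.21 to 0.28).

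Nr3c2, which encodes the mineralocorticoid receptor (chromosome 8, plus strand, 76899442 to 77245012), read 8.55 and 8.21 in replicates 1 and 2 labelled IPMK WT. It read 8.55 and 8.18 in replicates 1 and 2 labelled IPMK cKO. Both replicate 1 arrays were high and both replicate 2 arrays low, with SDs of 0.00318 and 0.0192 within the pairs (n = 2 each). The log2 difference by replicate number was −0.35 (SE 0.09, 95% CI −0.58 to −0.12, unadjusted p = 0.0107, adjusted p = 0.314, limma). It passed with an intensity trend in limma (adjusted p = 0.0307) and after dropping probe sets averaging under 6 on the log2 scale (adjusted p = 0.0444), over a range of 0.0307 to 0.642 across the alternatives. By genotype label the log2 difference was −0.01 (95% CI −0.48 to 0.46), and it took either sign as single arrays were left out, between −0.196 and 0.174.

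Sgk1 had the widest gap of the 10 genes between the genotype labels. It encodes a serine/threonine kinase that regulates ion channels and transporters, and its RNA is made quickly after glucocorticoid and many other stimuli. Its probe set spans 21882184 to 21999903 of chromosome 10, plus strand. Sgk1 read 7.79 and 7.87 (7.83 ± 0.06, SD, n = 2) under the IPMK WT label, then 8.14 and 8.21 (8.17 ± 0.05, SD, n = 2) under the IPMK cKO label. Both arrays labelled IPMK cKO lay above both labelled IPMK WT, by a gap of 0.271. The log2 difference was 0.35 (SE 0.12, 95% CI 0.05 to 0.64), or 1.27-fold, with an unadjusted p = 0.0296 and an adjusted p = 0.9999 from limma. It was 0.349 between the replicate 1 arrays and 0.344 between the replicate 2 arrays. With each array left out in turn, it lay between 0.308 and 0.386, and the unadjusted p from limma rose to between 0.0551 and 0.143, above 0.05 each time. By LPE the unadjusted p was 0.101. By replicate number it was 0.08 (95% CI −0.38 to 0.53).

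Of the promoter windows given by RefSeq (GRCm38.p6, 250 bases before to 50 bases after a start site), 16 belonged to 8 of the 10 genes, and Nr3c1 and Zbtb16 had none. The glucocorticoid response element palindrome, that is the half-site AGAACA, any 3 bases and its reverse complement TGTTCT, searched on both strands, occurred in 3 of 32851 windows of all genes (0.00913%), and 1 of these is a window of Sgk1. That window is shown because it holds the sequence through which glucocorticoid receptor is known to act, on the plus strand at chr10:21993640-21993939, with the palindrome in capitals.
Sgk1: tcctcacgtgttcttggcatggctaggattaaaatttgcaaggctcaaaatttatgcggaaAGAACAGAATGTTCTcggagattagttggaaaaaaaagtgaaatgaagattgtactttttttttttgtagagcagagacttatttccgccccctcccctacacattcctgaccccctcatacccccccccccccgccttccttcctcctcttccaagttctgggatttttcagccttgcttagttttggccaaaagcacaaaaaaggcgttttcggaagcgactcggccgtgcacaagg
The capitals run from 189 to 175 bases before the start site. Sgk1 had 6 windows in all, and the probe set does not tell their transcripts apart. The palindrome occurred in none of its other windows, nor in any window of the other genes among the 10. A match in letters is a description and does not show binding in these mice.

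Immediate early genes, blood markers and choroid plexus markers differed by genotype label mainly between the replicate 1 arrays. Over 9 immediate early genes the median log2 difference by label was 0.31, with 8 higher and 1 lower, 0 at an adjusted and 0 at an unadjusted p under 0.05 in limma, and 2 without overlap. Over all probe sets 27.2% were without overlap by label. The median of the 9 genes was 0.67 between the replicate 1 arrays and −0.03 between the replicate 2 arrays, and 2 of the 9 had the same sign at both. Their summed linear signals overlapped, at 1100 and 1570 under the IPMK WT label against 1890 and 1550. Fos, a transcription factor gene induced by neuronal activity, read 5.19 and 5.95 under the IPMK WT label, then 6.29 and 6.01 under the IPMK cKO label (unadjusted p = 0.0759, limma). Nr4a1, an activity-induced nuclear receptor gene, read 8.39 and 8.89 against 9.21 and 8.89, with overlap between the labels. Arc, which encodes a synaptic protein, read 7.69 and 8.62 against 8.79 and 8.66. Ier2 and Arc had the lowest p by replicate number, with log2 differences of 0.18 and 0.40. Ier2 averaged 4.88 on the log2 scale, under the array medians. Over 6 blood markers the median was 0.29, and their summed linear signal ranged from 1770 to 1880 under the IPMK WT label, then from 2100 to 2410 under the IPMK cKO label. That median was 0.42 between the replicate 1 arrays and 0.00 between the replicate 2 arrays. Over 8 choroid plexus markers, 8 were lower by label, with a median of −0.37. That median was −0.91 between the replicate 1 arrays, with 0 of the 8 higher. It was 0.16 between the replicate 2 arrays, with 8 of the 8 higher. Their summed signals overlapped, at 7900 to 9500 under the IPMK WT label against 6380 to 8780. The Sgk1 difference was 0.349 between the replicate 1 arrays and 0.344 between the replicate 2 arrays, and the part of these lists in it was not tested. Oligodendrocyte markers, whose cells are also known to express Sgk1, had a median log2 difference of −0.01 by label over 10 genes. Their part was likewise not tested.

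Cdkn1a, on chromosome 17 from 29090979 to 29100722, encodes the cell cycle inhibitor p21, a target of p53 as well as of glucocorticoid receptor. It read 6.70 and 6.76 under the IPMK WT label, then 6.83 and 6.89 under the IPMK cKO label. The arrays labelled IPMK cKO were higher without overlap, by a gap of 0.0619. The log2 difference was 0.13 (SE 0.12, 95% CI −0.17 to 0.42, adjusted p = 0.9999, limma), and it was 0.128 and 0.123 at replicate numbers 1 and 2. Over 12 other p53 target genes the median log2 difference by label was 0.01, with 6 higher and 6 lower, and 0 called. Those with the lowest p were Gtse1, a mitotic regulator, with a log2 difference of −0.32 and Sesn2, a stress-induced inhibitor of mTOR complex 1, at −0.29. Gtse1 averaged 5.08 on the log2 scale, under the array medians. By replicate number the lowest p were those of Plk2, a kinase gene of activity-dependent synaptic scaling, at −0.31 and Zmat3, an RNA-binding protein gene, at 0.26.

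**Figure D2:**
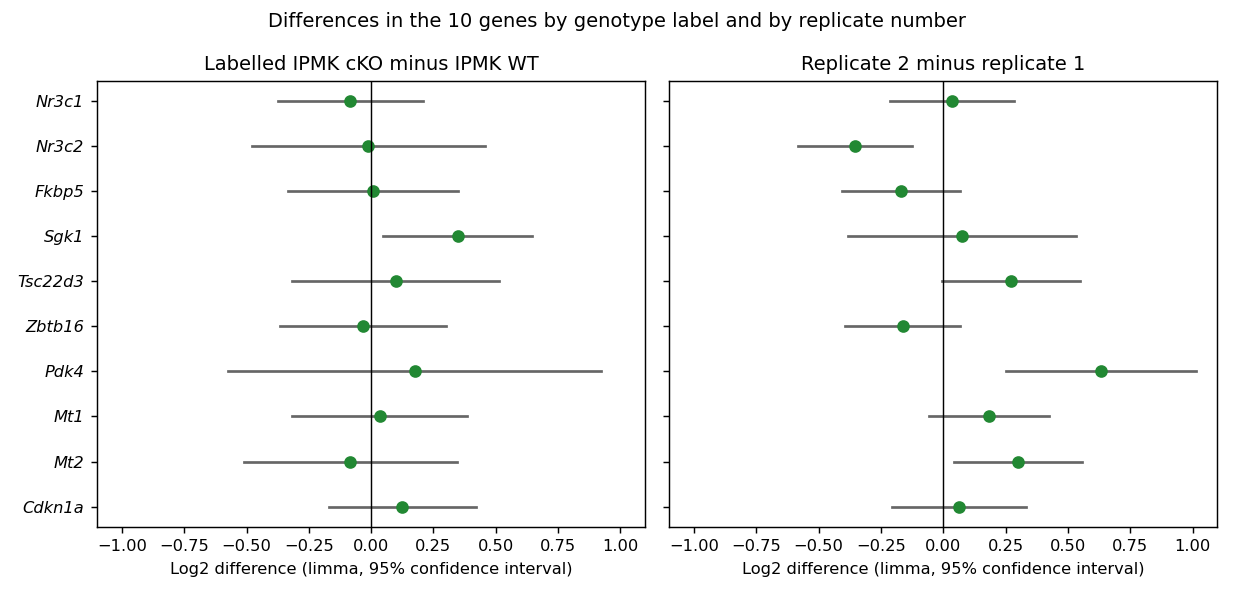
Log2 differences of the 10 genes by genotype label (left) and by replicate number (right), as points with 95% CIs from limma. By genotype label the interval of Sgk1 alone, 0.05 to 0.64, lies off 0. By replicate number those of Nr3c2, Pdk4 and Mt2 do.

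Fkbp5 and Zbtb16, which are widely read as hormone-responsive, were nearly level by genotype label. Fkbp5, on chromosome 17 from 28399095 to 28517524, encodes a co-chaperone that lowers the affinity of glucocorticoid receptor for hormone and is itself induced by it. It read 6.91 and 6.79 in replicates 1 and 2 labelled IPMK WT, and 6.96 and 6.75 under the IPMK cKO label. The arrays of the 2 labels overlapped, and the log2 difference by label was 0.01 (SE 0.14, 95% CI −0.33 to 0.35). Both replicate 2 arrays were lower than both replicate 1 arrays, with a log2 difference of −0.17 (95% CI −0.41 to 0.07, adjusted p = 0.526, limma).

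Zbtb16, on chromosome 9 from 48654297 to 48835945, encodes the zinc finger repressor PLZF. It read 8.89 and 8.73 in replicates 1 and 2 labelled IPMK WT, and 8.86 and 8.70 under the IPMK cKO label. The labels overlapped (log2 difference −0.03, 95% CI −0.37 to 0.30), while the replicate 2 arrays were lower under both labels. By replicate number the log2 difference was −0.16 (95% CI −0.39 to 0.07, adjusted p = 0.533, limma).

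Tsc22d3, on chromosome X from 140539528 to 140600659, encodes GILZ, a glucocorticoid-induced leucine zipper protein. It lay on the other side of Fkbp5 and Zbtb16 by replicate number, at 5.91 and 6.28 in replicates 1 and 2 labelled IPMK WT, and 6.11 and 6.29 under the IPMK cKO label. The replicate 2 arrays were higher without overlap, with a log2 difference of 0.27 (SE 0.11, 95% CI −0.00 to 0.55, adjusted p = 0.418, limma). It was 0.177 without replicate 1 of the IPMK WT label and 0.369 without replicate 1 of the IPMK cKO label. By genotype label it was 0.10 (95% CI −0.32 to 0.51). The only array on which it read under 6 was replicate 1 labelled IPMK WT, and without that array the difference by label was −0.0847.

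Pdk4 had the widest spread of the 10 genes, 0.834 on the log2 scale. It lies on chromosome 6 from 5483351 to 5496309 and encodes a kinase that inhibits the pyruvate dehydrogenase complex, which spares glucose in fasting. Pdk4 read 6.91 and 7.75 in replicates 1 and 2 labelled IPMK WT, and 7.29 and 7.72 under the IPMK cKO label. Both replicate 2 arrays were higher, by a gap of 0.434. The log2 difference by replicate number was 0.63 (SE 0.15, 95% CI 0.25 to 1.01), or 1.55-fold, with an unadjusted p = 0.00783 and an adjusted p = 0.307 from limma. It passed with an intensity trend (adjusted p = 0.0417) and by the LPE test (adjusted p = 3.87e-04). It passed in no other alternative (adjusted p = 0.537 by the test of averages). LPE made far more false calls than limma on simulated data, whose variances followed the model of limma. By genotype label the log2 difference was 0.17 (95% CI −0.57 to 0.92). Dropping the IPMK WT array of replicate 2 gave 0.592, and dropping that of replicate 1 gave −0.242.

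The genes whose values over the 4 arrays lay closest to those of Pdk4, each gene centred on its own mean, were Meis2, AW495222 and Scd1. Their root mean square distances were 0.0451, 0.0547 and 0.0595 on the log2 scale, among 11698 genes averaging at least 6 on the log2 scale. Meis2, a homeobox transcription factor gene, read 7.87 and 8.66 in replicates 1 and 2 labelled IPMK WT, and 8.33 and 8.71 under the IPMK cKO label. With 4 arrays such closeness is a description only.

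The metallothionein genes Mt1 and Mt2 encode small proteins that bind zinc and copper and are induced by metals as well as by glucocorticoids, and in brain they are made largely by astrocytes. Both are plus-strand genes of chromosome 8, Mt2 from 94172618 to 94173567 and Mt1 from 94179089 to 94180327, with 5521 bases between their probe sets. Mt1 read 10.50 and 10.74 in replicates 1 and 2 labelled IPMK WT, and 10.59 and 10.72 under the IPMK cKO label. Mt2 read 11.30 and 11.54 in replicates 1 and 2 labelled IPMK WT, and 11.16 and 11.51 under the IPMK cKO label. Both genes were higher in both replicate 2 arrays, without overlap.

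By replicate number the log2 difference of Mt2 was 0.30 (SE 0.10, 95% CI 0.04 to 0.56, unadjusted p = 0.0293, adjusted p = 0.367, limma). It passed with an intensity trend (adjusted p = 0.0327) and by the LPE test (adjusted p = 0.00833), with the same limit on LPE, over a range of 0.00833 to 0.672 across the alternatives. That of Mt1 was 0.18 (SE 0.09, 95% CI −0.06 to 0.42, adjusted p = 0.503, limma). By genotype label they had log2 differences of 0.03 for Mt1 (95% CI −0.32 to 0.38) and −0.08 for Mt2 (95% CI −0.51 to 0.34).

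The promoter windows of Mt1 and Mt2 are shown because these neighbouring genes stood on the same side by replicate number. The capitals mark the core of the metal response element, TGCACNC or TGCGCNC, searched on both strands.
Mt2: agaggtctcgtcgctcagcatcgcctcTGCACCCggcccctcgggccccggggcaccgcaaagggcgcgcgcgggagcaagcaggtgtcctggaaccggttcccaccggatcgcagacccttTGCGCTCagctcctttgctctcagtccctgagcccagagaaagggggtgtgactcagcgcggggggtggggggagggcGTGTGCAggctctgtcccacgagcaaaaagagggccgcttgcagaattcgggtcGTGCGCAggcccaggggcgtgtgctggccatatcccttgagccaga
Mt1: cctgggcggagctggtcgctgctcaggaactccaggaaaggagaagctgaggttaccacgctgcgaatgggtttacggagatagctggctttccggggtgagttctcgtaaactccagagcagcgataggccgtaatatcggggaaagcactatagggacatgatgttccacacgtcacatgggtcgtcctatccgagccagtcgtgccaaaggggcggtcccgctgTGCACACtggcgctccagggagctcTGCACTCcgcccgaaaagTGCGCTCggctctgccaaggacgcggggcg
They lie on the plus strand at chr8:94172368-94172667 (Mt2) and chr8:94178839-94179138 (Mt1). The core occurred 4 times in the window of Mt2 and 3 times in that of Mt1. At least 4 occurred in 0.517% of all windows, at least 3 in 1.97% and at least 1 in 25.7%, so a single match is common. A relaxed palindrome, GNACA, any 3 bases and TGTNC, which the Sgk1 palindrome also contains, occurred once in the window of Mt1 and in 0.475% of all windows. Neither window held the full palindrome.

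Mt3, the brain metallothionein gene, read 10.03 and 10.45 in replicates 1 and 2 labelled IPMK WT, and 10.07 and 10.51 under the IPMK cKO label. Its log2 difference by replicate number was 0.43 (unadjusted p = 0.00518, adjusted p = 0.296, limma). Slc39a12, a zinc importer gene, had a log2 difference of 0.63 by replicate number, the lowest p among the 10 further genes of zinc handling. Of these, 2 had an unadjusted p under 0.05 in the higher direction and 1 in the lower, Slc30a3, the zinc transporter gene of synaptic vesicles, at −0.25. Over all probe sets 6.6% were higher and 5.51% lower at such a p. By genotype label, Slc30a1 and Mtf1, the metal-regulated exporter and the metal-sensing transcription factor, had the lowest p, with log2 differences of 0.11 and 0.08.

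**Figure D3:**
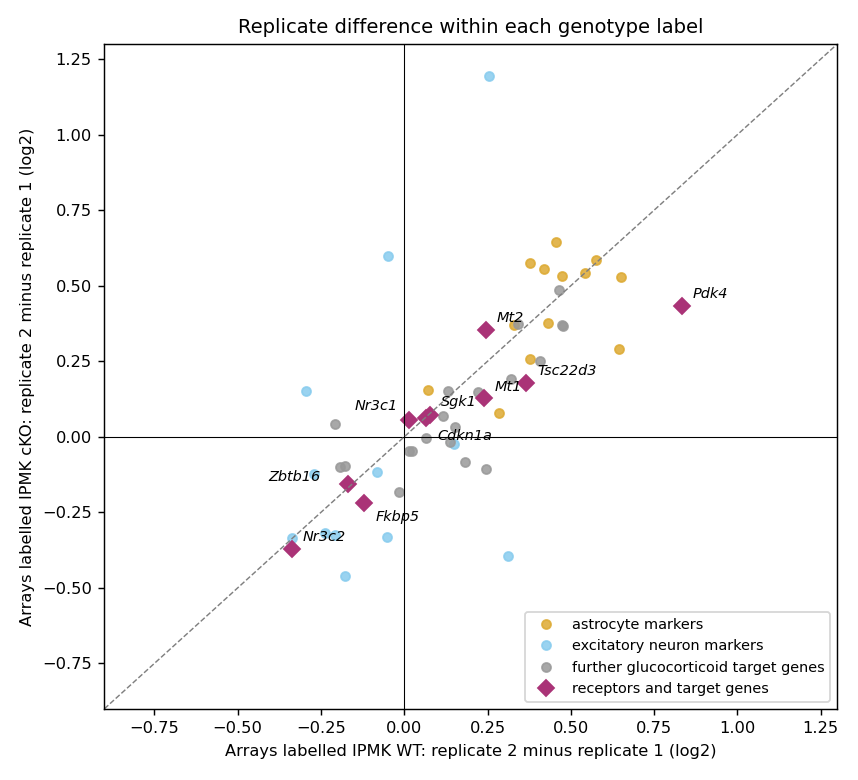
Replicate 2 minus replicate 1 on the log2 scale within the IPMK WT label (horizontal) and within the IPMK cKO label (vertical), 1 point per gene, with the dashed line marking equal differences. All 10 receptor and target genes lie in the same-sign quadrants, Pdk4 at 0.834 and 0.434 and Nr3c2 at −0.338 and −0.370. The 13 astrocyte markers all lie above 0 on both axes.

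Glial markers were higher in the replicate 2 arrays, on the side of Pdk4, Tsc22d3, Mt1 and Mt2. Of 13 astrocyte markers, 13 were higher without overlap and 11 had an unadjusted p under 0.05, with a median log2 difference of 0.48. Over all probe sets 22% were higher without overlap, and 6.6% were higher at an unadjusted p under 0.05. The summed linear signal of the astrocyte markers ranged from 10800 to 11300 in the replicate 1 arrays and from 13700 to 14400 in the replicate 2 arrays. The brightest, Aldoc and Atp1b2, which encode a glycolytic enzyme and a subunit of the sodium pump, had log2 differences of 0.32 and 0.11. Microglia markers had a median of 0.39 over 10 genes, with summed signals of 2000 to 2130 against 2840 to 2850. Oligodendrocyte markers had a median of 0.25 over 10 genes, with summed signals of 11700 on both replicate 1 arrays against 13700 to 14000.

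Excitatory neuron and mural markers were lower at the median, on the side of Nr3c2, Fkbp5 and Zbtb16. Of 12 markers of hippocampal excitatory neurons, 9 were lower on the replicate 2 arrays and 4 had an unadjusted p under 0.05 in that direction (median log2 difference −0.14). Over all probe sets 5.51% were lower at such a p. The differences of the 12 markers ran from −0.34 to 0.72, with 3 higher. The summed signals of the excitatory neuron markers overlapped, at 9400 and 9440 in replicates 1 and 2 of the IPMK WT label. They were 9780 and 8800 in those of the IPMK cKO label. Of 8 inhibitory neuron markers 4 were higher and 4 lower, with a median of −0.01. Mural markers had a median of −0.30 over 7 genes, with 6 lower and 1 higher, from −1.23 to 0.16. The lowest was Acta2, the smooth muscle actin gene. It read 8.99 and 7.63 in replicates 1 and 2 labelled IPMK WT, and 8.82 and 7.73 under the IPMK cKO label. The dimmest marker was Ly6c1 of endothelial cells, with a mean log2 value of 3.62, under the array medians of 5.10 to 5.15. The part of glial, neuronal and mural content in the differences by replicate number was not tested. By genotype label the summed astrocyte signals overlapped, from 10800 to 13700 under the IPMK WT label, then from 11300 to 14400 under the IPMK cKO label.

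**Figure D4:**
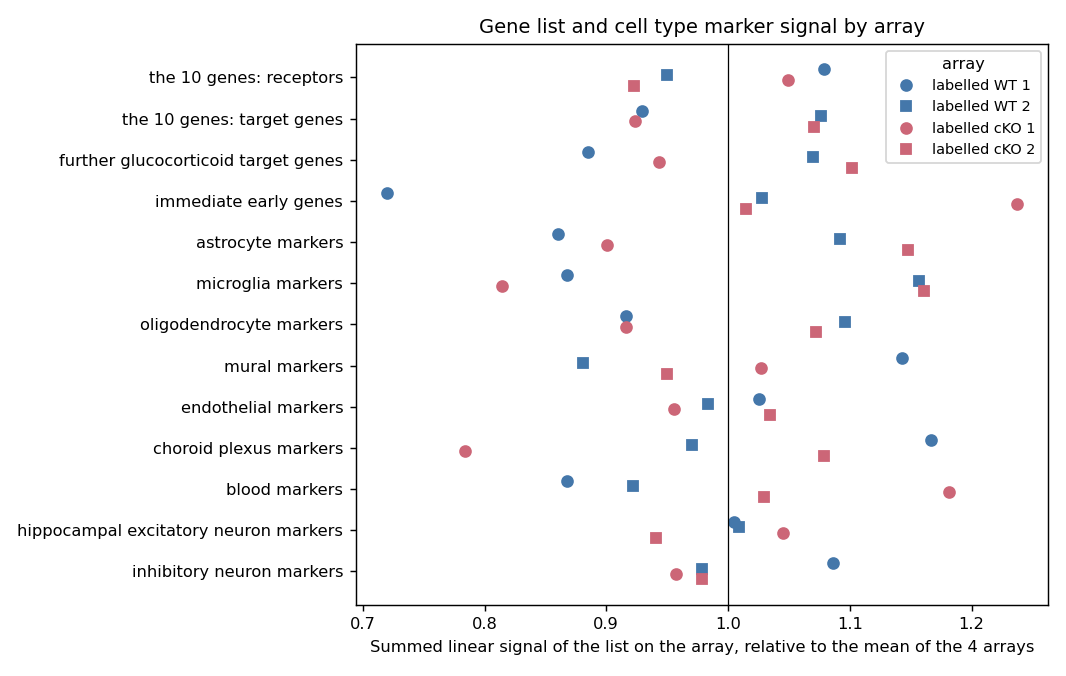
Summed linear signal of each gene list on each array, divided by the mean of the 4 arrays, with symbols as in the plot by array. The sums of target genes, astrocyte, microglia and oligodendrocyte markers are higher on both replicate 2 arrays, and those of receptor genes and mural markers lower. Mt1 and Mt2, the brightest target genes, weigh most in their sum. By replicate number 6 of the 8 target genes are higher and 2 lower, Fkbp5 (−0.17) and Zbtb16 (−0.16). Of the receptor genes, Nr3c2 is lower (−0.35) and Nr3c1 is not (0.03). Choroid plexus markers are lowest on replicate 1 labelled IPMK cKO, at 6380 against 7900 to 9500 on the other arrays.

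A further 20 glucocorticoid target genes were examined beside the 10. By genotype label, 16 were higher and 4 lower, with a median log2 difference of 0.05, 0 at an adjusted p under 0.05 and 0 at an unadjusted p under 0.05. Between the replicate 1 arrays the median was 0.09 with 16 higher, and between the replicate 2 arrays 0.02 with 12 higher. For the 8 target genes among the 10 it was 0.11 with 6 higher, then −0.02 with 3 higher. Map3k6, a kinase gene, and Lcn2, the lipocalin gene of inflammatory responses, had the lowest p, with log2 differences of 0.27 and −0.20. They averaged 5.06 and 4.73 on the log2 scale, under the array medians of 5.10 to 5.15. Per1, a clock gene with a direct hormone response, read 9.21 and 9.24 under the IPMK WT label, then 9.40 and 9.36 under the IPMK cKO label (log2 difference 0.16, unadjusted p = 0.233, limma). Its arrays did not overlap by label. Dusp1, a phosphatase gene that ends MAP kinase signalling, read 7.60 and 7.85 against 7.96 and 7.85. Klf9, a hormone-responsive zinc finger gene, read 9.81 and 10.03 in replicates 1 and 2 labelled IPMK WT, and 9.89 and 10.04 under the IPMK cKO label, with overlap by label and none by replicate number.

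By replicate number, 14 of these 20 genes were higher and 6 lower on replicate 2 than on replicate 1 (median log2 difference 0.08). None had an adjusted p under 0.05 from limma, and 4 had an unadjusted p under 0.05, all higher, with log2 differences of 0.48 for Cebpd, 0.42 for Fam107a, 0.36 for Glul and 0.42 for Hif3a. Cebpd encodes a transcription factor of acute responses, Fam107a an actin-binding protein, Glul the glutamine synthetase of astrocytes and Hif3a a hypoxia-inducible factor subunit. Fam107a read 10.61 and 11.09 in replicates 1 and 2 labelled IPMK WT, and 10.72 and 11.09 under the IPMK cKO label. The 11 of the 20 genes without overlap by replicate number comprised 8 higher and 3 lower, where all probe sets gave 22% and 22.7%. At an unadjusted p under 0.05, 6.6% of all probe sets were higher by replicate number.

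Genes that supply the receptors with hormone were also read. Hsd11b1, whose enzyme regenerates active corticosterone inside cells, read 6.30 and 6.69 in replicates 1 and 2 labelled IPMK WT, and 6.22 and 6.59 under the IPMK cKO label. Both replicate 2 arrays were higher, with a log2 difference of 0.38 (unadjusted p = 0.0109, adjusted p = 0.315, limma), and by genotype label it was −0.09. Crhr2, a receptor of the urocortin peptides, had a log2 difference of 0.49 by replicate number. Abcb1a and Serpina6 had the lowest p by genotype label, with log2 differences of −0.18 and −0.14. Abcb1a exports some corticosteroids at the blood-brain barrier. Serpina6, the gene of the corticosteroid-binding globulin of plasma, averaged 4.02 on the log2 scale, under the array medians. Of the 11 genes of this list, 0 had an unadjusted p under 0.05 by genotype label and 3 by replicate number, all higher. Over all probe sets these shares were 2.86% and 12.1%, the latter with 6.6% higher.

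The chaperones that hold the receptors ready for hormone, and the coregulators they recruit, had small differences at the median. By genotype label the median log2 difference over 17 genes was 0.01, with 0 at an unadjusted p under 0.05. Ptges3, the p23 co-chaperone gene of Hsp90, read 7.56 and 7.50 under the IPMK WT label, then 7.28 and 7.29 under the IPMK cKO label, a log2 difference of −0.24 without overlap (unadjusted p = 0.0846, limma). Stip1, the adaptor between Hsp70 and Hsp90, had a log2 difference of 0.12. By replicate number 15 of the 17 genes were lower on replicate 2 than on replicate 1 (median −0.06). Of the 17, 10 were lower without overlap and 0 higher, against 22.7% and 22% of all probe sets. At an unadjusted p under 0.05 from limma, 1 was lower and 0 higher, against 5.51% and 6.6% of all probe sets. That gene was Crebbp, the CREB-binding protein gene, with a log2 difference of −0.29. Ncoa1, a steroid receptor coactivator gene, had a log2 difference of −0.22.

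Clock genes bear on the reading because glucocorticoid level follows the time of day. Over 14 core clock and output genes the median log2 difference was 0.04 by genotype label and 0.08 by replicate number, and 0 had an adjusted p under 0.05 from limma in either. At an unadjusted p under 0.05 there were 0 by genotype label and 1 by replicate number, against 2.86% and 12.1% of all probe sets. The 1 was Bhlhe41, a repressor of the clock, with a log2 difference of 0.28. Per3 and Per2, partners of Per1, had log2 differences of 0.21 and 0.18 by genotype label. Cry1, a core repressor, had the next lowest p by replicate number, with a log2 difference of 0.24. The 95% CIs of the 14 genes by genotype label reached from 0.722-fold to 1.43-fold.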

How the data were processed

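The authors scanned the arrays with Command Console and summarized them by gene-level RMA in Expression Console, and the deposited log2 values were used as given. A second deposited table differed by at most 8.88e-16. A further 4 columns of per-array values repeat those used and were left out, as were the authors' columns of fold change, LPE score and adjusted p. The genome build of the annotation is not given in the sources used here. All 10 probe sets overlapped their gene in a RefSeq table of GRCm38.p6.

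The main test was limma 3.58.1 in R 4.3.3 (lmFit, then eBayes, with 3.69 prior degrees of freedom by genotype and 3.01 by replicate number), unblocked and unfiltered, with Benjamini-Hochberg adjustment over 33793 probe sets. Since each side has 2 arrays, the smallest two-sided p of an exact permutation test is 0.333. The LPE test named in the methods was rewritten (100 bins, span 0.2). On simulated data LPE recovered more of the changed probe sets than limma but made far more false calls. The simulated variances were drawn from the prior fitted by limma, independent of level, which favours limma. That simulation therefore does not settle how many false calls LPE makes on these arrays. Precision is set by the small number of arrays. The alternatives covered the variance model (trend, robust), replicate number or genotype as a term, median centring, a repeat of quantile normalization, dropping probe sets averaging under 4 or 6, leaving out each array, the other table, LPE and a test of averages.

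The 10 genes and the 16 gene lists were chosen with earlier results of these data known. Named were the 10 genes, Ipmk, Per1, Klf9, Dusp1, Mt3 and Hsd11b1, the 2 genes with the lowest p of each pathway list and comparison, the 2 brightest astrocyte markers as examples of the marker lists, and the 3 genes nearest to the widest-ranging gene. Slc30a3, Glul, Hif3a, Acta2 and Ly6c1 were named after their values were seen. Plots were drawn with matplotlib 3.10.9. PCR, blots and staining were not analysed here.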

Additional observations from a re-analysis of the deposited data

Results flagged for a closer look

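Of 41 named genes, 12 had replicate 2 minus replicate 1 of opposite sign under the genotype labels, none of them among the 10 receptor and target genes. With 1 array in each cell of the design the difference was not tested, and opposite signs are common among small values. On the log2 scale, replicate 2 minus replicate 1 in the arrays labelled IPMK cKO less that in the arrays labelled IPMK WT was −1.05 for Arc, −1.03 for Fos and −0.822 for Nr4a1. For Fos it was 0.76 in the arrays labelled IPMK WT and −0.27 in those labelled IPMK cKO. It was −0.352 for Dusp1, −0.351 for Gtse1, −0.286 for Per2 and 0.248 for Lcn2. For the others it was 0.0974 in Mtf1, 0.0945 in Slc30a1, 0.0783 in Ptges3, −0.0711 in Per1 and −0.0679 in Map3k6.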

How the results depend on the processing

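By genotype label, limma called 0 probe sets under every alternative, and LPE called 2. LPE made more false calls on data simulated with the variance model of limma. At an unadjusted p under 0.05 there were 966, against 541 and 123 with filters at mean log2 values of 4 and 6, 386 by LPE and 795 to 1539 with 1 array left out. Groups share replicate numbers, and controls were littermates, but the labels do not say that a number marks a litter or batch. Replicate differences under the labels correlated at r = 0.244 across 33793 probe sets, which are not independent, and with 2 pairs this does not settle a pairing. The replicate block gave 0 calls, with 1502 at an unadjusted p under 0.05. By replicate number, 883 passed with an intensity trend, 619 at a mean log2 value of at least 6 and 910 by LPE, of which 3, 1 and 2 were among the 10 genes. At an unadjusted p under 0.05 there were 2644 to 3513 with 1 array left out. Of 150 values of the 10 genes by genotype label, 14 had the other sign, all uncalled. These were Nr3c2 after median centring (0.00932) and 13 values with an array left out, whose ranges were −0.196 to 0.174 for Nr3c2, −0.101 to 0.118 for Fkbp5, −0.0847 to 0.282 for Tsc22d3, −0.117 to 0.0518 for Zbtb16, −0.242 to 0.592 for Pdk4, −0.0859 to 0.153 for Mt1 and −0.261 to 0.094 for Mt2. Of 150 by replicate number, 4 had the other sign, within −0.0174 to 0.0854 for Nr3c1, −0.0989 to 0.25 for Sgk1 and −0.000471 to 0.127 for Cdkn1a. Only median centring, the repeat of quantile normalization and leaving out an array alter the log2 difference itself. The other settings return it unchanged by construction, so these counts out of 150 overstate how stable the signs are. Each gene has 1 probe set, so a mean over probe sets changes nothing. Filters and omissions leave less data by construction, and for the other settings the cause was not tested.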
